A study of Ctenopharyngodon idella and Danio rerio with 13 samples.

Results

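The genes described here are the HMGB, HMGA and prothymosin alpha genes of the grass carp annotation, chosen as every entry whose symbol begins with hmga, hmgb or ptma. There are 10 of them among 31314 named entries: 6 HMGB genes (hmgb1a, hmgb1b, hmgb2a, hmgb2b, hmgb3a and hmgb3b), 2 HMGA genes (hmga1a and hmga1b) and 2 prothymosin genes (ptmaa and ptmab). The group was proposed from counts of hmgb1b, hmga1a and ptmaa in zebrafish libraries, so the zebrafish values are a description and were not tested.

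Read counts per gene were available for 13 sperm libraries, each from 1 fish. The GSCT group (germline stem cell transplantation, with the genotype given as surrogate reproduction) held 3 libraries of sperm from zebrafish hosts, which the labels assign to grass carp as the organism. The series' title gives the transplanted cells as female germline stem cells. The other groups were 5 wildtype grass carp and 5 wildtype zebrafish. No strain, age or remaining host germ cells were stated in the sources used here. Each fish gave 0.5 µL of sperm, diluted into 20 µL of buffer, and 1 µL of the dilution entered a full-length mRNA amplification kit made for single cells.

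All libraries were counted on the same entries, whose symbols are those of the grass carp annotation, so a zebrafish value depends on which zebrafish reads aligned to the grass carp gene. The GSCT libraries held between 376926 and 2602370 named counts, the grass carp libraries between 1335167 and 5471312, and the zebrafish libraries between 487 and 248321. Zebrafish replicate 3, with 487 counts, stood apart, and 1 read there is worth 2053 CPM (counts scaled to the total of named counts). Ribosomal RNA took 86.1% of named counts in zebrafish replicate 1, 16.6% in replicate 2, 52.7% in replicate 4 and 48.7% in replicate 5. Of 13 sperm and spermatid markers in the files, zebrafish libraries had counts on 9, and tekt1, tekt4, dnai2a and spata18 were at 0 there. Of 6 germ cell markers they had counts on 2, piwil1 and sycp1. Of 5 testis somatic markers they had counts on 0, of 4 red blood cell markers on 1, of 7 leukocyte markers on 2 and of 5 epithelium and muscle markers on 3. The summed zebrafish levels of the last 3 lists were at most 4.03, 10.9 and 27.3 CPM. Zebrafish germ cell sums were 0, 219, 2053, 2293 and 1342 CPM in replicates 1 to 5, from 0, 13, 1, 242 and 246 counts. Sperm and spermatid sums were 129, 1891, 2053, 66.3 and 497 CPM, from 32, 112, 1, 7 and 91 counts. In GSCT and grass carp libraries every marker of every list had counts, with sums of 621 to 703 CPM and 628 to 705 CPM for sperm, 179 to 252 CPM and 194 to 228 CPM for leukocytes and 119 to 132 CPM and 113 to 135 CPM for testis somatic cells. Sums overlapped between the groups for these lists. They did not for germ cell markers, at 178 to 184 CPM in GSCT and 212 to 236 CPM in grass carp, nor for red blood cell markers, at 92.2 to 100.1 CPM and 114 to 124 CPM. Nothing is read from these gaps, since 20.0% of all genes had an unadjusted edgeR p under 0.05 between the groups. For epithelium and muscle the sums were 175 to 203 CPM and 162 to 200.5 CPM. These markers therefore do not set sperm apart from other cells in GSCT and grass carp libraries. The part of other cells in the counts below was not tested.

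High mobility group proteins are small, abundant proteins of chromatin that bind DNA or nucleosomes with little preference for sequence and change their shape. HMGB proteins carry a pair of HMG boxes that bend DNA through the minor groove and an acidic tail, and HMGA proteins bind stretches rich in A and T bases through AT-hooks. Prothymosin alpha is a very acidic, unfolded nuclear protein that binds linker histone H1 in mammals. In mice Hmgb2 is needed for normal spermatogenesis. The a and b copies of many fish genes go back to the genome duplication of teleosts, and reads that such copies share can be split between them or lost, so values of single copies are uncertain.

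The clearest reading was of ptmaa, a prothymosin alpha gene, in zebrafish libraries. Its counts there were 93, 78, 3, 1443 and 824 in replicates 1 to 5. These stood at 375, 1317, 6160, 13673 and 4496 CPM, and the value of replicate 3 rests on its 3 counts. Every zebrafish library lay above all GSCT and grass carp libraries: the lowest zebrafish value was 25 times the highest of the other 8 libraries, 14.98 CPM. This ratio is of named counts. Unnamed entries held 13.8% to 77.9% of all counts in zebrafish libraries and at most 0.678% in the others. Zebrafish CPM would therefore be lower with these entries in the total. A single count is worth 16.9 CPM in zebrafish replicate 2 and 2053 CPM in replicate 3, already above 14.98 CPM. Of all named entries, 116 (0.370%) had a count in all 5 zebrafish libraries. The share of all genes with zebrafish values above all other libraries was not taken. No such gap, here or below for ptmab and hmga1a, is read as particular to the gene. In bulk samples such as these, fewer cells of a type and less RNA per cell cannot be told apart.

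The zebrafish mean of ptmaa was 5204 ± 5281 CPM (SD, n = 5), 4965 CPM without replicate 3 and 3087 CPM without replicate 4. In grass carp libraries ptmaa had 49, 26, 56, 20 and 54 counts, with a mean of 10.4 ± 2.96 CPM (SD, n = 5). In GSCT libraries it had 32, 13 and 2 counts, with a mean of 7.89 ± 3.83 CPM (SD, n = 3). The gene was the fifth most counted protein-coding gene of zebrafish replicate 4, and its rank was 16 in replicate 5, 20 in replicate 3, 28 in replicate 1 and 103 in replicate 2. It held 81.7% of all zebrafish counts on the 10 genes, 2441 of 2988.

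Its copy ptmab had 40, 8, 0, 115 and 140 counts in zebrafish replicates 1 to 5. These were 161, 135, 0, 1090 and 764 CPM, with a mean of 430 ± 472 CPM (SD, n = 5; 537 without replicate 3). The 4 libraries with counts all lay above every GSCT and grass carp library. The 0 of replicate 3 is no contrast, since 3 counts there are worth 6160 CPM. In GSCT libraries ptmab stood at 12.7, 11.2 and 13.3 CPM, inside the grass carp range of 9.41 to 14.5 CPM. Both prothymosin genes together took 1.48% of named counts in zebrafish replicate 4 and 0.0536% in replicate 1, and no more than 0.00292% in any GSCT or grass carp library.

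Leaving ribosomal RNA out of the total changed the order of the zebrafish libraries. The ptmaa values of replicates 1 to 5 were then 2702, 1580, 6787, 28879 and 8763 CPM, and replicate 1 no longer had the lowest. The mean of ptmab moved by more than its spread, to 1023 ± 956 CPM (SD, n = 5). Leaving ribosomal RNA out raises every other gene of a library by the same factor, so the order of the zebrafish libraries depends on the total used. The part of ribosomal RNA in the differences among zebrafish libraries was not tested further.

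**Figure D1:**
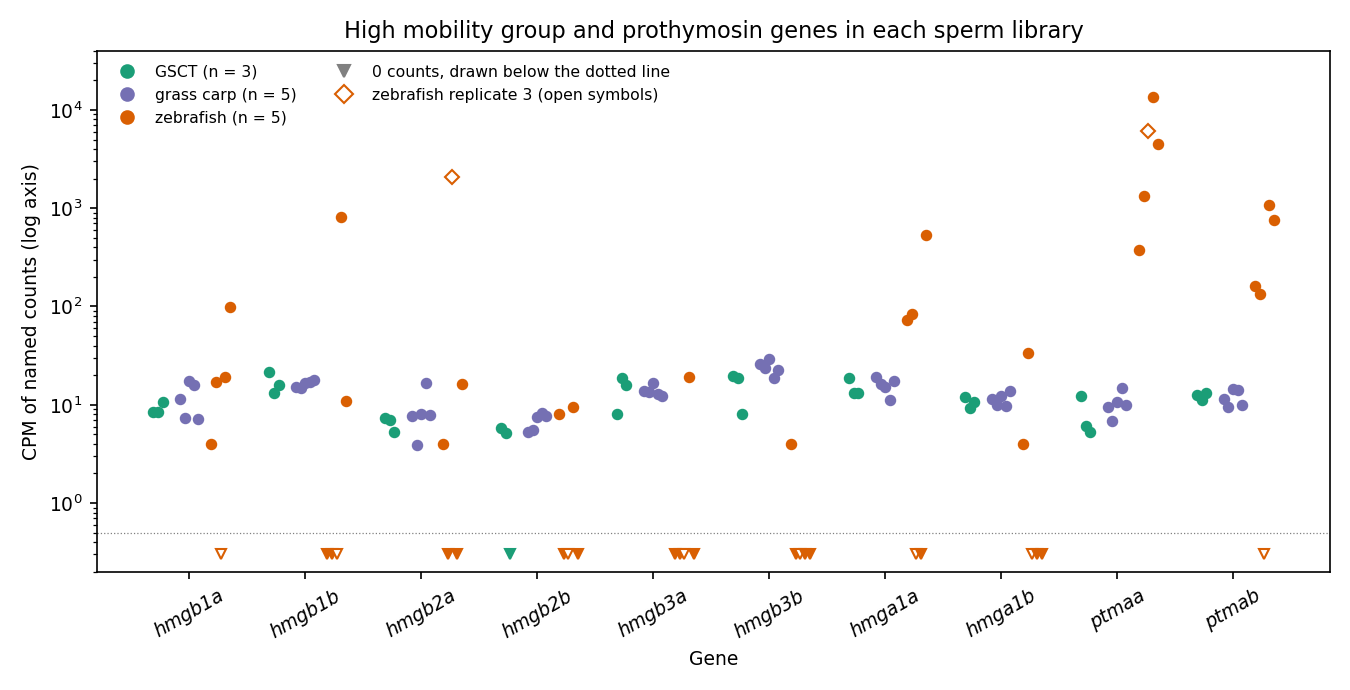
CPM of named counts on a log axis for the 10 genes in each library, coloured by group; triangles below the dotted line mark 0 counts and open symbols zebrafish replicate 3. The zebrafish points of ptmaa start at 375 CPM, while GSCT and grass carp points of all 10 genes stay under 30 CPM.

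Of the HMGA genes, hmga1a was counted in 3 zebrafish libraries, with 18, 5 and 98 counts in replicates 1, 2 and 5. These were 72.5, 84.4 and 535 CPM of named counts, all above the highest of the GSCT and grass carp libraries, 19.3 CPM. With unnamed entries included, hmga1a had 5 of 267957 counts in replicate 2 and 99 of 5124120 in grass carp replicate 1. The place of replicate 2 above that library therefore depends on the total used. The gene hmga1a had 0 counts in replicate 4, where 3 counts are worth 28.4 CPM, and 0 in replicate 3. The zebrafish mean was 138 ± 225 CPM (SD, n = 5; 39.2 without replicate 5). Grass carp libraries had a mean of 15.9 ± 3.03 CPM (SD, n = 5) and GSCT libraries 15.1 ± 3.26 CPM (SD, n = 3). The copy hmga1b had 3 counts in all in zebrafish libraries, 1 in replicate 1 and 2 in replicate 2, against means of 11.4 ± 1.66 CPM (SD) in the 5 grass carp libraries and 10.6 ± 1.28 CPM (SD) in the 3 GSCT libraries.

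The zebrafish level of hmgb1b, the copy of the HMGB1 gene that led to its choice, rested on 1 library. It had 85 counts in replicate 4 (805 CPM, 95% Wilson interval 651 to 996), 2 in replicate 5 (10.9 CPM) and 0 in the other libraries. Without replicate 4 the zebrafish mean fell from 163 ± 359 CPM (SD, n = 5) to 2.73 CPM. Every grass carp library stood at 14.9 to 17.9 CPM. The 0 of replicate 1 allows up to 12.1 CPM (3 counts) of all named counts and up to 87.2 CPM with ribosomal RNA left out, and that of replicate 2 up to 50.6 CPM, so no lower zebrafish level can be read from these zeros. GSCT libraries had 56, 28 and 6 counts, or 21.5, 13.1 and 15.9 CPM.

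The copy hmgb1a had 1, 1, 0, 2 and 18 zebrafish counts in replicates 1 to 5, so replicate 5, which was nearly empty of hmgb1b, held most of them (98.2 CPM, 95% Wilson interval 62.1 to 155). Replicate 4, high in hmgb1b and in ptmaa, had 0 counts of hmga1a, and replicate 5, high in hmga1a, had 2 of hmgb1b. Zebrafish libraries that shared high prothymosin counts thus differed in which HMG gene was counted. Patchy counts were common there: 12.6% of all named entries had counts in exactly 1 zebrafish library, 6.16% in 2 and 4.59% in 3. Zebrafish counts also led to the choice of hmgb1b and hmga1a, so nothing is read from this about HMG genes.

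Genes hmgb2a, hmgb2b, hmgb3a and hmgb3b had 5, 3, 2 and 1 counts over all zebrafish libraries. The level of hmgb2a in zebrafish replicate 3, 2053 CPM, is a single read, and without that library the zebrafish mean was 5.10 CPM. For hmgb3b, the 0 of replicate 5 allows up to 16.4 CPM of all named counts and up to 31.9 CPM with ribosomal RNA left out, and grass carp libraries stood at 18.7 to 28.9 CPM. Pooled over libraries, zebrafish values were 1.68 CPM for hmgb3b and 3.35 CPM for hmgb3a, and pooled grass carp values were 24.9 and 14.0 CPM. These zebrafish values rest on 1 and 2 reads and on totals that include ribosomal RNA. With ribosomal RNA left out, the only zebrafish library with a count stood at 29.1 CPM for hmgb3b (replicate 1) and 40.0 CPM for hmgb3a (replicate 4). No lower zebrafish level is read from the pooled values. The order of zebrafish pooled values, not divided by gene span, was ptmaa (4090 CPM), ptmab (508 CPM), hmga1a (203 CPM), hmgb1b (146 CPM) and hmgb1a (36.9 CPM). The other 5 genes were under 9 CPM. The spread between libraries does not separate hmga1a, hmgb1b and hmgb1a in that order.

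A count in at least 3 of the 5 zebrafish libraries was found for 5 of the 10 genes (ptmaa, ptmab, hmgb1a, hmga1a and hmgb2a). The same held for 9.92% of all named entries and for 11.6% of protein-coding genes. Nothing is read from this contrast, because zebrafish counts led to the choice of the group. With 3 or more counts asked of each library the number was 3 of 10. It was also 3 without zebrafish replicate 1 and without replicate 5.

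Each gene was next set against its copy, which shares the library and its depth. In zebrafish libraries ptmaa made up 69.9%, 90.7%, 100%, 92.6% and 85.5% of the counts of ptmaa and ptmab in replicates 1 to 5. The corresponding shares were 45.4%, 41.9%, 42.1%, 51.3% and 50% in grass carp libraries. In GSCT libraries they were 49.2%, 35.1% and 28.6%, the last from 7 counts. Every zebrafish share was thus above every share of the other groups, and GSCT and grass carp shares overlapped. Zebrafish counts led to the choice of ptmaa, hmga1a and hmgb1b, so the zebrafish shares of these copies are a description only. They also depend on which copy the zebrafish reads aligned to.

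For hmga1a and hmga1b, the hmga1a share was 94.7%, 71.4% and 100% in zebrafish replicates 1, 2 and 5, from 19, 7 and 98 counts. It was 53.6% to 62.7% in grass carp and 55.6% to 61.3% in GSCT libraries. The hmgb1b share of hmgb1a and hmgb1b was 97.7% in zebrafish replicate 4 (95% Wilson interval 92.0% to 99.4%) and 10% in replicate 5 (2.79% to 30.1%), and these intervals do not overlap. In grass carp it ran from 48.9% to 71.5% and in GSCT libraries from 60% to 71.8%. Intervals cover counting error only, since amplified reads carry no molecular identifiers.

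**Figure D2:**
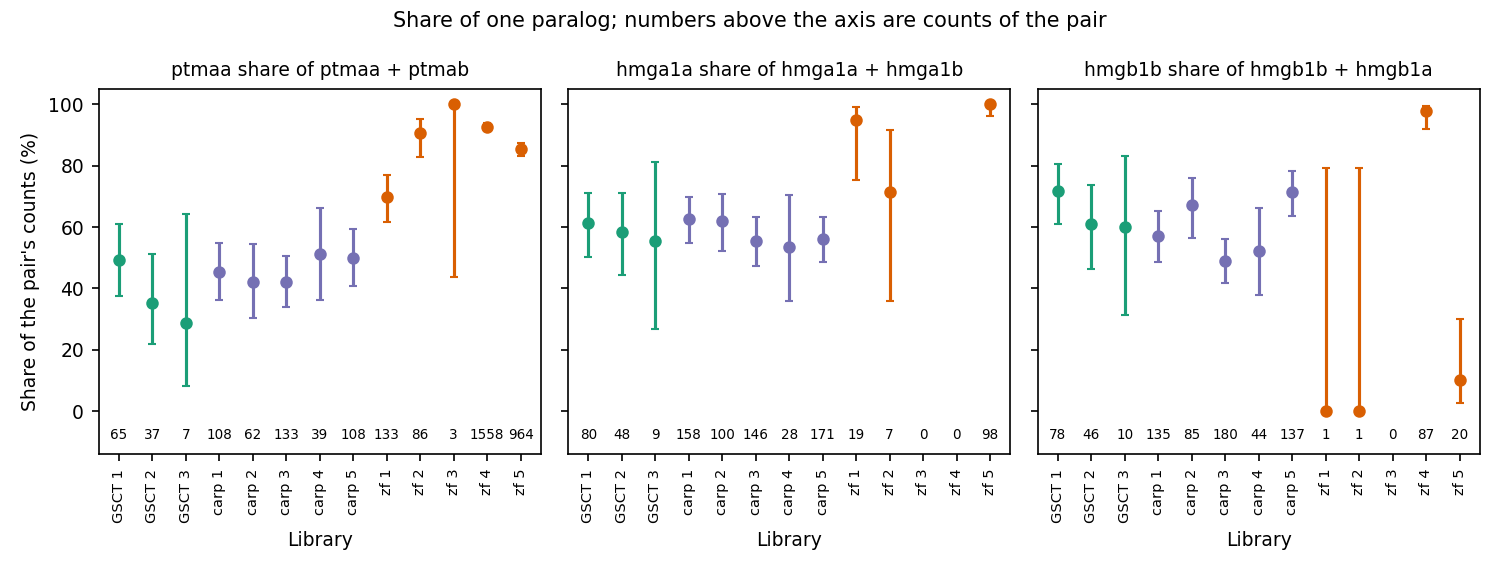
Share of the counts of a pair of copies that fell on the named copy, in percent, for each library (carp, grass carp; zf, zebrafish), with 95% Wilson intervals and the pair's count above the axis. Zebrafish shares of ptmaa run from 69.9% to 100%, above all others, and the hmgb1b share is 97.7% in zebrafish replicate 4 and 10% in replicate 5.

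Between GSCT and grass carp libraries, the share of 1 copy did not pass in any of 5 pairs (exact two-sided permutation tests, adjusted over the 5 pairs). The ptmaa share was 37.6% ± 10.6 (SD) in the 3 GSCT libraries and 46.1% ± 4.36 (SD) in the 5 grass carp libraries, with exact permutation p = 0.143 and adjusted p = 0.298. For hmga1a the shares were 58.4% ± 2.85 and 58.0% ± 4.10 (exact p = 0.857, adjusted p = 0.857), and for hmgb1b 64.2% ± 6.57 and 59.4% ± 9.65 (exact p = 0.446, adjusted p = 0.558). The smallest p that 3 against 5 libraries allow is 0.0179. Without GSCT replicate 1 the ptmaa difference was -14.3 percentage points (unadjusted exact permutation p = 0.0476, the smallest then possible).

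Surrogate-made and grass carp sperm were compared in their counts on these genes with edgeR's quasi-likelihood test across all genes. GSCT libraries had counts on 28173 to 30003 named genes and grass carp libraries on 29614 to 30154, against 237 to 6264 in zebrafish libraries. Whether the counts come from RNA of these genes alone was not tested. All 10 genes passed the filter on low counts and 0 passed adjusted p under 0.05, while 4.34% of all 28165 tested genes did (3.49% higher and 0.849% lower in GSCT). None had an unadjusted p under 0.05 in this fit, against 20.0% of all genes, and DESeq2 also called 0. The log2 changes, GSCT minus grass carp, had a median of -0.07 over the 10 genes and of -0.01 over all genes, with 6 of the 10 below 0. The direction of 6 of the 10 genes (hmgb1b, hmgb2a, hmgb3a, hmga1a, hmga1b and ptmaa) flipped in at least 1 of the alternatives tried.

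Among HMGB genes the lowest p was that of hmgb3b, at -0.38 ± 0.21 (log2, SE; edgeR adjusted p = 0.335). GSCT libraries held 19.6, 18.7 and 7.96 CPM of it and grass carp libraries 26.2, 23.5, 28.9, 18.7 and 22.5 CPM. The groups met at their edge, with GSCT replicate 1 and grass carp replicate 4 out of order. The 95% interval of the change, as a fold, was 0.562 to 1.05. Over all 15 fits the change of hmgb3b stayed below 0, from -0.50 to -0.28. With library size alone its unadjusted edgeR p was 0.04997 (adjusted p = 0.240). For hmgb2b, GSCT replicate 3 had 0 counts, where 3 counts are worth 7.96 CPM, and the change was -0.37 ± 0.39 (edgeR adjusted p = 0.646).

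The prothymosin and HMGA genes lay near no change. For ptmaa the change was -0.08 ± 0.33 (log2, SE; edgeR adjusted p = 0.931), with a fold interval of 0.590 to 1.51. The interval of ptmab was 0.748 to 1.59 (edgeR adjusted p = 0.850), that of hmga1a 0.714 to 1.42 (adjusted p = 0.997) and that of hmga1b 0.659 to 1.40 (adjusted p = 0.941). For hmgb1b it was 0.807 to 1.54 (edgeR adjusted p = 0.759) and for hmgb1a 0.481 to 1.33 (adjusted p = 0.665). The interval of hmgb2b ran from 0.442 to 1.35 and that of hmgb2a from 0.518 to 1.62. These intervals leave room for changes of the size they span, and a p that misses the threshold does not show that the groups are alike.

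**Figure D3:**
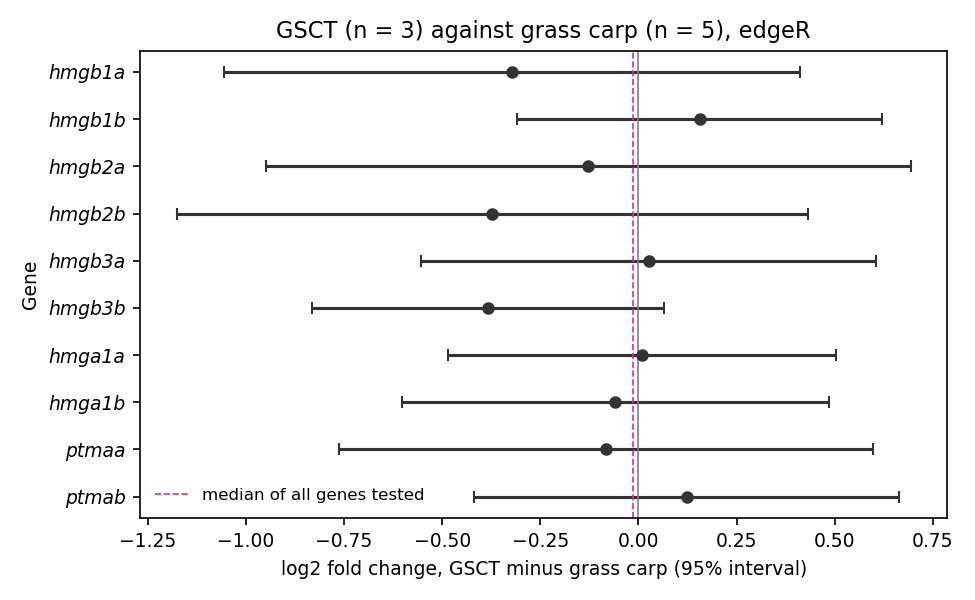
Log2 fold change of each gene, GSCT minus grass carp, from edgeR, with 95% intervals; the dashed line is the median of all genes tested. All 10 intervals include 0, and hmgb3b lies furthest to the left at -0.38.

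The spread among grass carp libraries was close to counting error for some of the genes and above it for others. The SD of hmgb1b, 1.33 CPM, was 0.586 times what counting error alone gives at these depths. The SD of hmgb2a was 2.97 times and that of hmgb1a 2.49 times counting error. For hmgb2a, grass carp replicate 4 stood at 16.5 CPM and replicate 2 at 3.92 CPM, with the other 3 between 7.62 and 8.11 CPM. For hmgb1a, replicates 3 and 4 stood at 17.4 and 15.7 CPM and replicates 2 and 5 at 7.32 and 7.13 CPM.

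Levels of different genes were set side by side per kb of gene span, as the reference table gives it. In grass carp libraries the 10 genes ran from 1.78 CPM per kb (hmgb2b) to 4.51 (hmgb1b), and protein-coding genes had a median of 2.57 with quartiles at 1.37 and 4.13. In GSCT libraries they ran from 0.945 (hmgb2b) to 4.65 (hmgb1b), beside a median of 2.34 and quartiles at 1.24 and 3.89. The gene hmgb1b was above the upper quartile in both groups. The prothymosin gene ptmaa was at the 52.9th percentile of protein-coding genes in grass carp and at the 44.3rd in GSCT libraries.

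In zebrafish libraries the median of protein-coding genes was 0 and ptmaa stood at 1370 CPM per kb. The next were hmgb2a at 180, through the single read of replicate 3, ptmab at 86.9, hmgb1b at 45.0 and hmga1a at 19.8 CPM per kb. Per kb, GSCT and grass carp libraries had the 10 genes among ordinary protein-coding genes, and the zebrafish libraries had ptmaa at the 99.95th percentile. Zebrafish percentiles say little alone: hmgb3b was at the 78.5th with 1 count and hmgb2a at the 99.6th with 5.

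**Figure D4:**
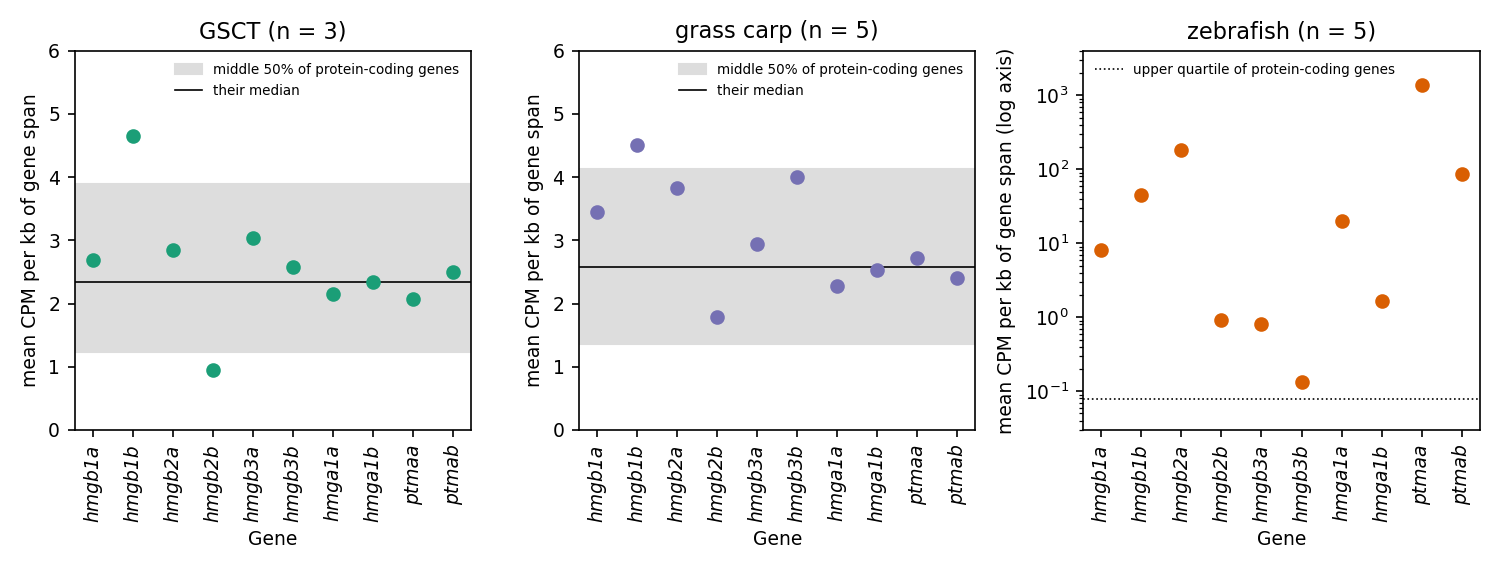
Mean CPM per kb of gene span for the 10 genes in each group, with the median and interquartile range of all protein-coding genes in GSCT and grass carp; the zebrafish axis is logarithmic and shows the upper quartile. The genes lie around the median in GSCT and grass carp, while ptmaa reaches 1370 CPM per kb in zebrafish libraries.

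Counts on neighbouring genes were set beside those of each gene. Of all named entries 71.4% had 0 counts in every zebrafish library, and zebrafish counts led to the choice of ptmaa, hmga1a and hmgb1b. The zebrafish contrast of these genes with their neighbours is therefore a description only. The 2 nearest genes on each side of ptmaa in the reference table (a noncoding RNA gene and phb2b on one side, dlg1a and a noncoding RNA gene on the other) had 12 zebrafish counts together, against 2441 on ptmaa. The 4 neighbours of hmga1a (smim29, nudt3a, a noncoding RNA gene and opn7b) had 0, against 121 on hmga1a. Those of hmgb1b had 1 count, against 87, and those of ptmab 16, against 303. For the other 6 genes the neighbours together held more zebrafish counts than the gene. They had 104 against 3 for hmga1b, 80 of them on the ribosomal protein gene rps10, and 36 against 22 for hmgb1a. For hmgb2a, hmgb2b, hmgb3a and hmgb3b they had 25, 9, 9 and 3, against 5, 3, 2 and 1.

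Counts per kb of gene span were also compared, since neighbours differ in span. Summed over zebrafish libraries, ptmaa had 642 counts per kb and its neighbours together 0.0610, and hmgb1b had 24 counts per kb and its neighbours 0.0187. Of the 10 genes, 1 had fewer zebrafish counts per kb than its neighbours, hmga1b with 0.662 against 3.59. Dividing by span thus changed the number from 6 to 1. The share of all genes that lie below their neighbours was not taken, so nothing is read from either number. In grass carp libraries ptmaa had 53.9 counts per kb and its neighbours 30.5, and hmgb1b had 94.6 and its neighbours 83.0. In GSCT libraries ptmaa had 12.4 counts per kb against 6.49, and hmgb1b 24.8 against 21.3. Copies kept like neighbours, with dlg1a and phb2b beside ptmaa and dlg1b and phb2a beside ptmab. Likewise nudt3a and nudt3b lay beside hmga1a and hmga1b, and mtmr1a and mtmr1b beside hmgb3a and hmgb3b.

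**Figure D5:**
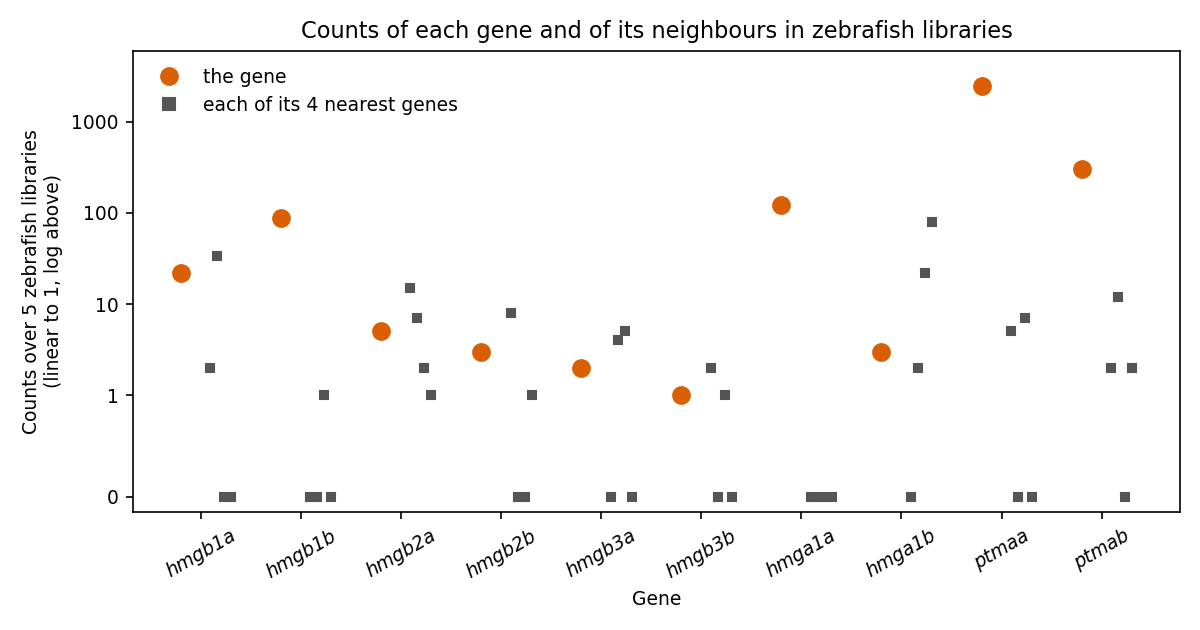
Counts over the 5 zebrafish libraries on each of the 10 genes (circles) and on each of its 4 nearest genes (squares), on an axis that is linear up to 1 and logarithmic above. The circle of ptmaa stands at 2441 and that of hmga1a at 121, above all of their neighbours, while hmga1b lies below rps10 and nudt3b.

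Other chromatin proteins of related function were read from lists chosen by role. Of 18 further HMG-box proteins, 3 HMGN proteins, 23 histone chaperones and acidic proteins and 1 histone variant gene tested between GSCT and grass carp, 0 passed by edgeR or DESeq2. Unadjusted p under 0.05 was found for 4, 1, 3 and 0 of them, against 20.0% of all genes tested. The lists' median log2 changes were -0.02, -0.56, 0.03 and -0.07. The lowest p was that of rbbp4, a histone-binding subunit of chromatin complexes, at 24, 22 and 7 counts in GSCT and 103, 78, 152, 21 and 101 in grass carp libraries (-0.92 ± 0.26, log2; edgeR adjusted p = 0.0522). Its call was reached by edgeR with no filter (adjusted p = 0.0447), with scaling by library size alone (adjusted p = 0.0417), and without GSCT replicate 3 (adjusted p = 0.0449). Leaving out grass carp replicate 2 or replicate 4 gave it as well (edgeR adjusted p = 0.0477 and 0.0438). The HMGN genes hmgn6 and hmgn7 had -0.56 ± 0.25 and -0.62 ± 0.34 (edgeR adjusted p = 0.222 and 0.327). The mitochondrial DNA packaging protein gene tfam had -0.71 ± 0.25 (edgeR adjusted p = 0.107), and chaf1a, a subunit of chromatin assembly factor, had 0.43 ± 0.15 (adjusted p = 0.122).

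In zebrafish libraries, counts in at least 3 libraries were found for 5 of the 18 HMG-box genes (ubtf, cica, cicb, tox2 and tox3) and for 3 of the 23 chaperone genes (seta, anp32a and nap1l1). They were also found for hmgn7, 1 of the 3 HMGN genes. The same held for 9.92% of all named entries and 11.6% of protein-coding genes, and the chaperone count lies near that share. The nucleosome-binding gene hmgn7 had 9, 46, 0, 0 and 2 counts in replicates 1 to 5, so that it peaked in replicate 2 (777 CPM). The chaperone gene seta had 1, 2, 0, 0 and 79, and peaked in replicate 5 (431 CPM), as hmga1a did. For anp32a, of an acidic nuclear protein, counts were 6, 13, 0, 4 and 39. In CPM, not divided by gene span, each of these was below ptmaa in the library where it was highest. Zebrafish counts led to the choice of ptmaa, so nothing is read from this order.

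The genes whose pattern across all 13 libraries was most like each of the 3 proposed members were taken from 2907 protein-coding genes with counts in at least 3 zebrafish libraries, by Pearson's correlation of log2(CPM + 1). For ptmaa these coefficients rest largely on the step between zebrafish and the other groups and on depth. For hmga1a and hmgb1b they rest largely on differences among the zebrafish libraries, which lay on both sides of the other groups. All are given as a description with no test. For ptmaa they were the cytoplasmic actins actb2 (0.987) and actb1 (0.965) and the ribosomal protein genes rpl23 (0.975), rpl39 (0.972) and rps4x (0.955). For hmga1a they were rpl10 (0.975), rps10 (0.974), jun (0.957), pgam1a (0.951) and cfl1 (0.948), each with 0 counts in zebrafish replicates 3 and 4. For hmgb1b they were tpm3 (0.962), prkar1ab (0.945), brd3a (0.931), stt3b (0.917) and mier3a (0.910), each with most of its zebrafish counts in replicate 4. Without zebrafish replicate 3, 3 of 5 stayed for hmgb1b, 3 for hmga1a and 1 for ptmaa, and with Spearman's coefficient 0, 0 and 1.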

How the data were processed

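Libraries made from sperm with an mRNA amplification kit (3 GSCT, 5 grass carp and 5 zebrafish) were sequenced. The authors deposited raw counts of reads for 31338 entries in each library. Per the submitters' processing notes, HISAT2, SAMtools, featureCounts, Subread, fastp, FastQC and CASAVA were used. Their versions, the build, the annotation and the strand setting were not given in the sources used here. The 24 unnamed entries were left out. They held 13.8% to 77.9% of a zebrafish library's counts, 0.172% to 0.678% in GSCT and 0.00360% to 0.138% in grass carp libraries. Symbols of all 10 genes matched a grass carp RefSeq table (assembly HZGC01), used for gene type, span and neighbours only, with no coordinates.

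CPM is scaled to named counts. A 0 is read against 3 counts. Groups were taken from the sample titles. GSCT and grass carp libraries were fitted with edgeR 4.0.16 in R 4.3.3 (TMM, filterByExpr with minimum count 10 and minimum total 15, glmQLFit and glmQLFTest, Benjamini-Hochberg adjusted p under 0.05). The code of the fit was also run on simulated counts that gave every gene the same dispersion. That run does not show how the test performs on these libraries. DESeq2 1.42.0, other scalings, no filter, a replicate block and leaving out libraries were the alternatives. Intervals of folds are 95%. Their SE is the absolute log2 change over the square root of the F value of edgeR's test. For hmga1a the printed p is larger than this SE gives, so an interval can be narrower than its test allows. The spread counting error gives is the Poisson SD at each library's depth. Copy shares were compared by exact permutation. No paired libraries are stated, so p-values measure the spread between libraries, each from 1 fish, with differences in amplification included.

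The genes and lists were chosen with earlier results of these data known. Text names all 10 genes, list members among the 4 with the lowest p, and the 5 most alike genes; zebrafish values of list genes and the copy shares were added after values were seen. Of 23 histone symbols listed, 1 is in the files. No sequences are shown.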

Additional observations from a re-analysis of the deposited data

Results flagged for a closer look

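In 7 of 20 groups of 5 libraries examined (each of the 10 genes in grass carp and in zebrafish), 1 library stood far from the rest. Chance flags about 1 group in 20 where values vary continuously. All 7 were zebrafish groups, most of whose libraries hold 0 or few counts, so that rate does not apply to them and the 7 are not read against it. For hmgb1b the high library was zebrafish replicate 4 (805 CPM, 85 counts). For hmga1a (535 CPM, 98 counts) and hmgb1a (98.2 CPM, 18 counts) it was replicate 5. The others rested on 1 or 2 counts: hmgb2a in replicate 3 (2053 CPM), hmga1b in replicate 2 (33.8 CPM), hmgb3a in replicate 4 (19.0 CPM) and hmgb3b in replicate 1 (4.03 CPM).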

How the results depend on the processing

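None of the 10 genes was called between GSCT and grass carp libraries under any alternative run (no filter, other scalings, DESeq2, a replicate block, zebrafish libraries in the fit, each library left out), and 120 of 140 log2 changes kept their sign. With the replicate block, hmgb2a stood at 0.24, hmgb3a at -0.031, hmga1a at -0.097, hmga1b at 0.024 and ptmaa at 0.067. With library size alone, hmgb3a stood at -0.046 and hmga1a at -0.058, and with no filter hmga1a at -0.0097. Leaving out 1 library gave -0.18 to 0.36 for hmgb1b, -0.29 to 0.065 for hmgb2a, -0.50 to 0.45 for hmgb3a, -0.25 to 0.15 for hmga1a, -0.21 to 0.041 for hmga1b and -0.66 to 0.18 for ptmaa. The hmga1a share of its pair differed by -1.03 to 1.82 percentage points. The hmgb3a share of its pair differed by 21.7 percentage points without GSCT replicate 1 (unadjusted exact permutation p = 0.0476, the smallest then possible). The share of GSCT replicate 3 rests on 9 counts. With all libraries the hmgb3a share had exact permutation p = 0.161 and adjusted p = 0.298. Over all genes there were 1223 calls, 512 with zebrafish libraries in the fit, 946 by DESeq2, 996 with the replicate block and 285 to 1534 with 1 library left out (285 without GSCT replicate 2, 679 without replicate 1, 812 without replicate 3 and 802 without grass carp replicate 5).

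Of the other chromatin genes 0 were called, but 1 was with no filter, with library size alone and with the replicate block, and 0 to 1 with 1 library left out. It was rbbp4, except with the replicate block, where it was nasp (-1.01, edgeR adjusted p = 0.0448). For nasp, grass carp replicate 1 stood apart at 59.2 CPM. The other grass carp libraries held 14.1 to 21.7 CPM and GSCT libraries 10.6 to 16.9 CPM. Replicate numbers are not stated to pair the fish. Deviations of same-numbered GSCT and grass carp libraries correlated at 0.0429, 0.0367 and -0.0155 across genes. The highest correlations with a grass carp library of another number were 0.0780, 0.0212 and 0.0331. Such values cannot decide whether same-numbered libraries were handled together. The count of genes seen in at least 3 zebrafish libraries was 5, 3 with 3 or more counts per library, and 3 to 5 with 1 library left out. Of 220 alternative means 3 moved by more than their spread, all zebrafish means without ribosomal RNA (ptmab, 1023 CPM; hmgb2b, 15.6 CPM; hmgb3b, 5.81 CPM). Pooling the counts of a group was added after the depths were seen, as was the test of copy shares. Coding length in place of gene span was not run, nor was CPM on a total that includes the unnamed entries. Zebrafish depth limits the zeros: 3 counts are worth 12.1 CPM in replicate 1 and 6160 CPM in replicate 3. The cause of these changes was not tested.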
